A study of Homo sapiens with 6 samples.

Results

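The genes described here are 9 messenger RNAs known as targets of let-7, a microRNA family. They are the chromatin proteins HMGA2 and HMGA1, the RNA-binding proteins IGF2BP1, IGF2BP2, IGF2BP3 and LIN28B, the transcription factor ARID3B, the ubiquitin ligase TRIM71 and the ubiquitin-conjugating enzyme CDC34. They were taken by symbol from a fixed list, and all 9 were present among the 28979 gene IDs counted. The list was chosen by the log2 fold change, Ang against Con, of all genes with let-7 seed sites, whose median had been seen to lie slightly below 0. The values of the members in that contrast are therefore a description.

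The cells were MDA-MB-231, a human triple-negative breast cancer line of mesenchymal character. Read counts came from 3 libraries labelled Ang and 3 labelled Con. The study design states that such cells were incubated with exosomes, small vesicles shed by cells, from hypertrophic or from normal cardiomyocytes, to search for targets of microRNAs. No label says what Ang and Con stand for, or gives a dose, a time or separate cultures. P-values therefore rest on differences among these 6 libraries alone, and those may be technical.

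Mature let-7 is a short RNA that is scarce in embryonic cells and abundant in most differentiated ones. It pairs through its seed, bases 2 to 8, with matching sites in 3′ untranslated regions and lowers the stability and translation of those messages. Genes such as HMGA2, LIN28B and the IGF2BPs are called oncofetal because they are active in the embryo, quiet in most adult tissue and often active again in tumours. LIN28B in turn blocks the maturation of let-7, so the pair forms a double-negative loop. The libraries were made from poly(A)-selected RNA, so mature let-7 itself was not measured.

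Of the family, 4 forms are printed to show how much they share, with the seed in capitals. They come from RefSeq on GRCh38.p14. The locus of let-7a-5p printed is 1 of 3, chr9:94175962-94175983 on the plus strand. The others are chr9:94178841-94178862 (let-7d, plus), chr12:62603691-62603712 (let-7i, plus) and chrX:53556299-53556320 (miR-98, minus).
let-7a-5p: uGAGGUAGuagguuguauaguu
let-7d-5p: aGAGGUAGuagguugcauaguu
let-7i-5p: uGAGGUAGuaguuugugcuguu
miR-98-5p: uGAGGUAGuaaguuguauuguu
All 9 mature forms found, let-7a to let-7i and miR-98, had the seed GAGGUAG and a length of 22 bases. Outside the seed they differed from let-7a-5p at 1 to 4 positions.

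Matches to this seed were searched in the 3′ untranslated region of 1 principal transcript per gene in GENCODE 29. An 8mer is CTACCTCA, a 7mer-m8 is CTACCTC without the final A, and a 7mer-A1 is TACCTCA without the leading C. Only the strand of the message was read, and each position counted once under its longest form. All 9 members had a match, 36 in all, and 13 of these in 7 members were 8mers. Among 19145 genes with such a region, 13.9% had any match and 3.26% an 8mer. TRIM71 had 8 matches and HMGA2 had 7, and 2 genes of all 19145 reached 7. LIN28B, IGF2BP1 and ARID3B had 5 each, CDC34 and IGF2BP2 had 2 each, and IGF2BP3 and HMGA1 had 1 each. Genes with 5 or more matches numbered 10 in all, 5 of them members. These counts go with length: of genes with 3000 or more bases in this region, 41.4% had a match, against 4.25% of those under 1000 bases. The members were listed as let-7 targets, so their matches are no independent observation.

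One match per gene is printed, in windows of 30 bases on GRCh38 with the match in capitals, since it is through these bases that let-7 can pair.
HMGA2 chr12:65963299-65963328, plus strand, 8mer: ccaacgttcgatttCTACCTCAgcagcagt
LIN28B chr6:105078813-105078842, plus strand, 8mer: cccggttgcaaagtCTACCTCAtgcaagta
TRIM71 chr3:32891969-32891998, plus strand, 8mer: acattgcttaagtcCTACCTCAtctttatt
IGF2BP1 chr17:49051062-49051091, plus strand, 8mer: gtgtgcgaagtaaaCTACCTCAaggtatga
IGF2BP2 chr3:185644212-185644241, minus strand, 8mer: acacacagaagaagCTACCTCAggtgtttt
IGF2BP3 chr7:23311787-23311816, minus strand, 8mer: gcatttttactcaaCTACCTCAggtattca
CDC34 chr19:541606-541635, plus strand, 8mer: ccttagacgacagaCTACCTCAcggaggtt
HMGA1 chr6:34245830-34245859, plus strand, 7mer-m8: cctctgttcacaaaCTACCTCtggacagtt
ARID3B chr15:74595828-74595857, plus strand, 7mer-A1: tgatgcacagaattTACCTCAtctcacaga
HMGA2, LIN28B, CDC34 and ARID3B carried a match within 75 bases of the stop codon. The printed ones lie at bases 21 to 28 after it in HMGA2, 44 to 51 in LIN28B, 68 to 75 in CDC34 and 68 to 74 in ARID3B. In IGF2BP1 and IGF2BP2 an 8mer was followed closely by a 7mer-A1, at bases 1632 and 1651 in IGF2BP1 and at bases 1304 and 1320 in IGF2BP2.

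**Figure D1:**
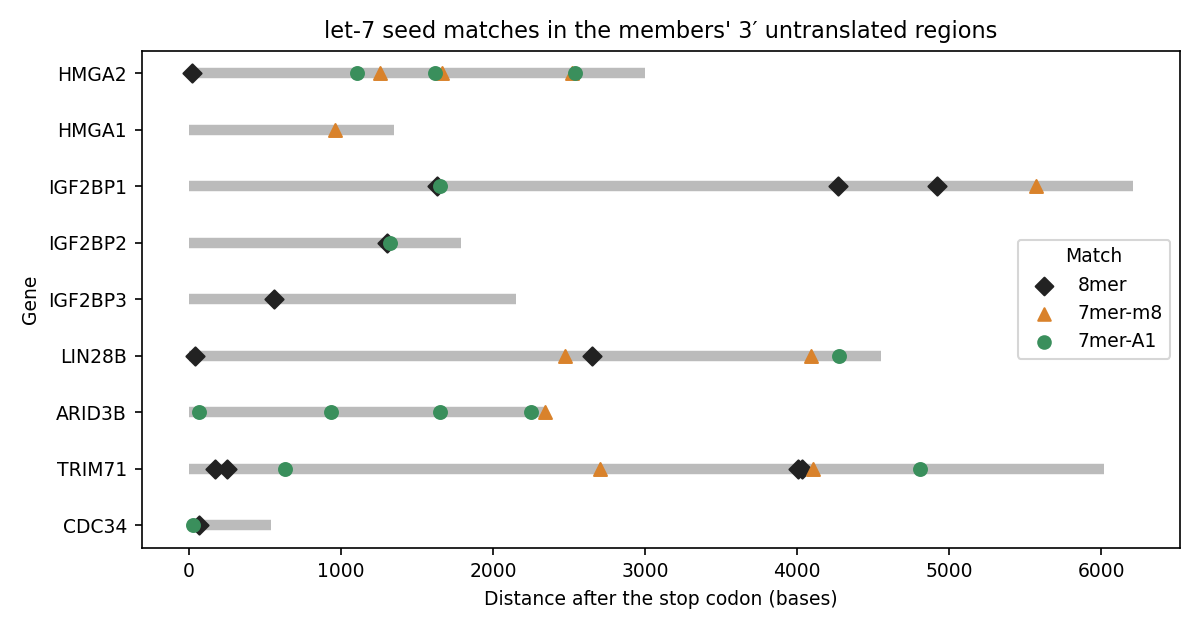
Seed matches of let-7 along the 3′ untranslated region of each member; grey bars are the regions, the x axis is the distance after the stop codon in bases, and symbols mark the first base of an 8mer, 7mer-m8 or 7mer-A1. TRIM71 and HMGA2 carried 8 and 7 matches, HMGA1 and IGF2BP3 1 each.

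Total counts ran from 3369212 to 5437190 per library, and a count of 0 allows up to 3 counts, 0.552 to 0.890 CPM (counts scaled to 1e6 per library). Levels below are CPM with edgeR's TMM factors applied. The 6 mesenchymal markers of the line, led by VIM and CD44, summed to 2343 to 2484 CPM in Ang and 1855 to 2473 CPM in Con. Of 6 luminal or epithelial markers, ESR1, PGR and CDH1 were at or below 1 CPM on average, while EPCAM, ERBB3 and GATA3 were above it. EPCAM averaged 9.76 CPM in Ang and 9.83 CPM in Con, ERBB3 6.93 and 4.15 CPM, and GATA3 3.14 and 4.69 CPM. The 6 summed to 16.4 to 24.6 CPM in Ang and 17.0 to 24.2 CPM in Con. Of 10 cardiomyocyte markers 7 were in the files, all but NPPA at or below 1 CPM on average, and their sum was 7.56 to 13.0 CPM in Ang and 7.18 to 19.2 CPM in Con. One feature of these counts bears on every level: in 250 pairs of a noncoding gene lying under a protein-coding gene on the opposite strand, the noncoding gene held 32.5 times as many counts per base at the median. The strand setting of the counting is not given in the sources used here, so levels of named genes are uncertain as measures of their RNA. Con replicate 2 stood apart, with a median ratio of 23.2 against 32.9 to 41.1 in the other 5 libraries, and the members' log2 fold changes are also given without it where that moves them, as are some of those of other genes.

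HMGA1 had by far the highest CPM of the members, though with the strand setting not given this is uncertain as a measure of its RNA. HMGA2 and HMGA1 are small proteins that bind AT-rich DNA through AT-hook motifs and bend it, and both are linked to invasive breast cancer. HMGA1 (ENSG00000137309, chr6:34236873-34246231) had 1184, 1280 and 1314 CPM in Ang replicates 1 to 3, against 1012, 1327 and 1070 CPM in Con replicates 1 to 3. Con replicate 2 lay above all 3 Ang libraries, while the other Con libraries lay below them. Its log2 fold change, Ang minus Con throughout, was 0.15 ± 0.17 (SE), and the 95% interval spanned 0.873 to 1.41-fold. Without Con replicate 2 it was 0.28 ± 0.10 (adjusted p 0.200 by the edgeR quasi-likelihood test). HMGA1 held 86.0% to 87.9% of the members' counts in Ang libraries and 85.5% to 86.8% in Con libraries. The HMGA1 pseudogenes in the files, HMGA1P1, HMGA1P2, HMGA1P3, HMGA1P5 and HMGA1P8, can share reads with it, and the highest of them, HMGA1P2, averaged 1.85 CPM in Ang and 2.85 CPM in Con.

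HMGA2 (ENSG00000149948, chr12:65824131-65966295), a classic let-7 target, had 37.0, 39.1 and 29.5 CPM in Ang replicates 1 to 3, against 36.1, 38.2 and 41.8 CPM in Con replicates 1 to 3. The lowest value was in Ang replicate 3 and the highest in Con replicate 3, and the groups overlapped. For HMGA2 the log2 fold change was -0.13 ± 0.23, with an interval of 0.664 to 1.25-fold. The ratio of HMGA1 to HMGA2 levels per kilobase of exon was 212 to 295 in Ang libraries and 169 to 230 in Con libraries. It rests on the 15403 annotated exon bases of HMGA2. Per kilobase of the principal transcript HMGA1 averaged 624 and HMGA2 8.26 CPM over the 6 libraries, which is a smaller ratio.

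A pair of noncoding genes, HMGA2-AS1 and RPSAP52, runs against HMGA2 on the minus strand. HMGA2-AS1 (chr12:65851340-65882167) shares 384 exon bases with it, 2.49% of the exon bases of HMGA2. RPSAP52 (chr12:65758020-65826997), a transcribed pseudogene that overlaps the start of the HMGA2 locus, shares none. HMGA2-AS1 had 45.8, 30.3 and 35.8 CPM in Ang replicates 1 to 3, against 39.7, 30.8 and 56.0 CPM in Con replicates 1 to 3. RPSAP52 had 58.4, 62.0 and 60.9 CPM in Ang, against 66.1, 57.3 and 82.1 CPM in Con. RPSAP52 had more counts than HMGA2 in each library and HMGA2-AS1 in 4 of 6, and among the Con libraries both had their lowest CPM in replicate 2. Per kilobase of exon, RPSAP52 had 29.7 ± 0.917 CPM in Ang and 33.7 ± 6.17 CPM in Con, against 2.28 ± 0.328 and 2.51 ± 0.188 CPM for HMGA2. Over the 250 strand pairs noncoding genes under a coding gene held 32.5 times as many counts per base at the median. In those pairs at least 90% of the noncoding gene's exon bases lay under the coding gene. HMGA2-AS1 had 6.36% of its exon bases under HMGA2 and RPSAP52 had none, so neither was such a pair. Which strand the reads of HMGA2-AS1 and RPSAP52 came from was not tested. Their log2 fold changes were -0.17 ± 0.23 for HMGA2-AS1 and -0.17 ± 0.20 for RPSAP52. Without Con replicate 2 they were -0.35 and -0.29, and without Con replicate 3 they were 0.08 and -0.03.

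**Figure D2:**
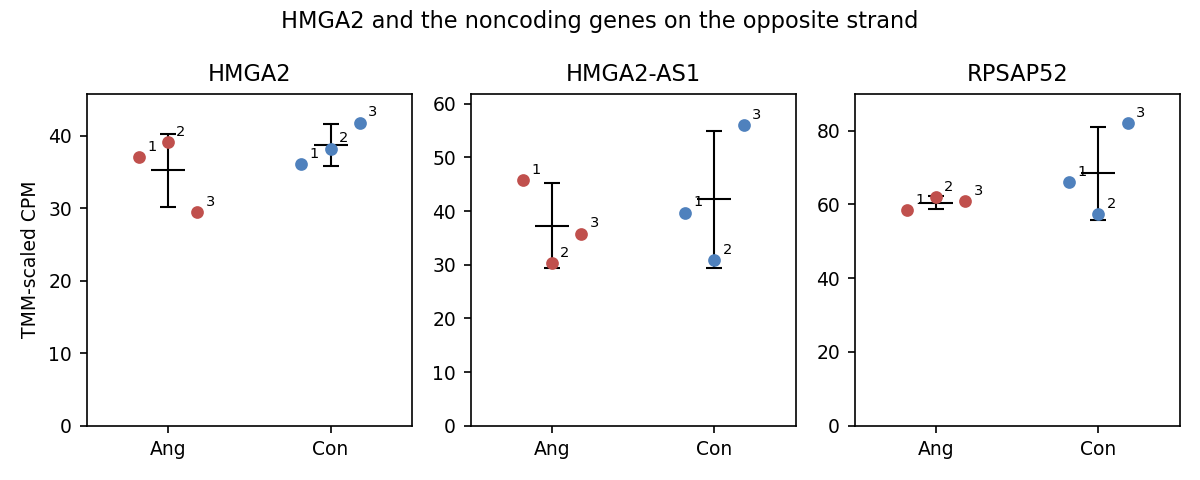
TMM-scaled CPM of HMGA2 and of HMGA2-AS1 and RPSAP52 on the opposite strand; points are libraries numbered by replicate, bars are the mean and SD of 3 libraries, with Ang left of Con. RPSAP52 lay at 58.4 to 62.0 CPM in Ang and 57.3 to 82.1 CPM in Con, above HMGA2 in each library. The strand setting of the counting is not given.

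The IGF2BP proteins bind messenger RNAs and shield them from decay, and each carries KH and RRM RNA-binding domains. IGF2BP2 (ENSG00000073792, chr3:185643739-185825056), which unlike its paralogs stays active in many adult tissues, had 63.4, 78.9 and 68.5 CPM in Ang replicates 1 to 3. In Con replicates 1 to 3 it had 55.8, 81.6 and 56.0 CPM. As for HMGA1, Con replicate 2 was the highest library and the other 2 Con libraries the lowest. IGF2BP2 had a log2 fold change of 0.12 ± 0.19, with an interval of 0.834 to 1.41-fold, and 0.33 ± 0.18 without Con replicate 2 (edgeR adjusted p 0.505).

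IGF2BP1 (ENSG00000159217, chr17:48997412-49055650) had 16.4, 17.6 and 24.3 CPM in Ang replicates 1 to 3, against 12.9, 18.3 and 13.5 CPM in Con replicates 1 to 3. The groups overlapped only through Con replicate 2, which lay above Ang replicates 1 and 2. IGF2BP1 had a log2 fold change of 0.38 ± 0.31, with an interval of 0.855 to 1.97-fold. It was 0.19 without Ang replicate 3, whose value was the highest, and 0.56 ± 0.33 without Con replicate 2 (edgeR adjusted p 0.551). Of its exon bases 1.24% lie under 2 antisense genes.

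IGF2BP3 (ENSG00000136231, chr7:23310209-23470467) had 16.4, 21.9 and 20.8 CPM in Ang replicates 1 to 3, against 29.4, 23.7 and 17.3 CPM in Con replicates 1 to 3. Con replicate 1 was the highest and Ang replicate 1 the lowest, with the groups overlapping. The log2 fold change was -0.26 ± 0.28, with an interval of 0.571 to 1.23-fold. Without Con replicate 1 it was -0.07. Here 17.9% of the exon bases lie under MALSU1, a mitochondrial ribosome assembly gene on the other strand, which averaged 202 ± 14.8 CPM in Ang and 210 ± 39.6 CPM in Con. The strand setting is not given, so how reads over these shared bases were divided between the 2 genes is not known.

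Within the family IGF2BP2 led in each library. Of the summed IGF2BP level per kilobase of exon it took 73.9% to 78.7% in Ang libraries and 70.8% to 78.3% in Con libraries. IGF2BP1 took 9.15% to 13.6% in Ang and 8.50% to 9.68% in Con, and IGF2BP3 took 11.3% to 12.5% in Ang and 12.6% to 20.7% in Con. The highest IGF2BP3 share was that of Con replicate 1. These shares depend on the length used, and that of IGF2BP3 includes the bases under MALSU1. Over the 6 libraries IGF2BP2 averaged 14.2 and IGF2BP3 2.54 CPM per kilobase of exon. Per kilobase of the principal transcript they averaged 18.3 and 5.08 CPM. The sum itself was 19.3 ± 2.07 CPM per kilobase in Ang and 18 ± 3.55 in Con (SD, n = 3 each).

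LIN28B (ENSG00000187772, chr6:104936616-105083332), which binds let-7 precursors and keeps them from maturing, was low. It had 4.11, 6.81 and 5.49 CPM in Ang replicates 1 to 3, from 14, 27 and 19 counts. In Con replicates 1 to 3 it had 8.66, 4.73 and 5.35 CPM, from 41, 28 and 17 counts. Con replicate 1 stood above the other 5 libraries, which spanned 4.11 to 6.81 CPM. The log2 fold change was -0.19 ± 0.50, with an interval of 0.441 to 1.75-fold. Leaving out Con replicate 1 turned the sign, to 0.12, and it was -0.36 ± 0.53 without Con replicate 2. The ratio of summed LIN28B counts scaled to library totals was 0.86, with an exact interval of 0.608 to 1.21 that covers counting error only. The paralog LIN28A had 6 counts over the Ang and 10 over the Con libraries.

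ARID3B (ENSG00000179361, chr15:74541177-74598131), a DNA-binding factor of the ARID family, had the largest fold change among the 8 tested members. It had 10.3, 7.82 and 6.07 CPM in Ang replicates 1 to 3, from 35, 31 and 21 counts. In Con replicates 1 to 3 it had 2.53, 6.93 and 3.77 CPM, from 12, 41 and 12 counts. Con replicate 2 lay among the Ang libraries, and the other 2 Con libraries below all of them. ARID3B had a log2 fold change of 0.84 ± 0.49, with an interval of 0.911 to 3.51-fold (adjusted p 0.999 by the edgeR quasi-likelihood test). It was 1.37 ± 0.58 without Con replicate 2 (adjusted p 0.329), and 0.54 without Con replicate 1. The ratio of summed counts scaled to library totals was 1.65, with an exact interval of 1.18 to 2.31 that covers counting error only.

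CDC34 (ENSG00000099804, chr19:531712-542092) passes ubiquitin to proteins held by SCF ligases in the cell cycle. It had 31.7, 33.5 and 25.4 CPM in Ang replicates 1 to 3, against 26.4, 40.7 and 23.9 CPM in Con replicates 1 to 3. Its means were 30.2 ± 4.25 CPM in Ang and 30.3 ± 9.09 CPM in Con, the Con libraries spreading more widely. The log2 fold change was -0.02 ± 0.25, with an interval of -0.51 to 0.47. It was 0.26 ± 0.26 without Con replicate 2 and -0.16 without Con replicate 3, so its sign rested on single libraries.

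TRIM71 (ENSG00000206557, chr3:32818018-32897826), the human ortholog of the worm let-7 target lin-41, was at the edge of detection. It had 0, 8 and 4 counts in Ang replicates 1 to 3, and 0, 4 and 4 counts in Con replicates 1 to 3. It did not pass the filter on low counts and was not tested. The depth-scaled ratio of 12 counts in Ang to 8 in Con was 1.85, and its exact interval ran from 0.695 to 5.22, again from counting alone.

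**Figure D3:**
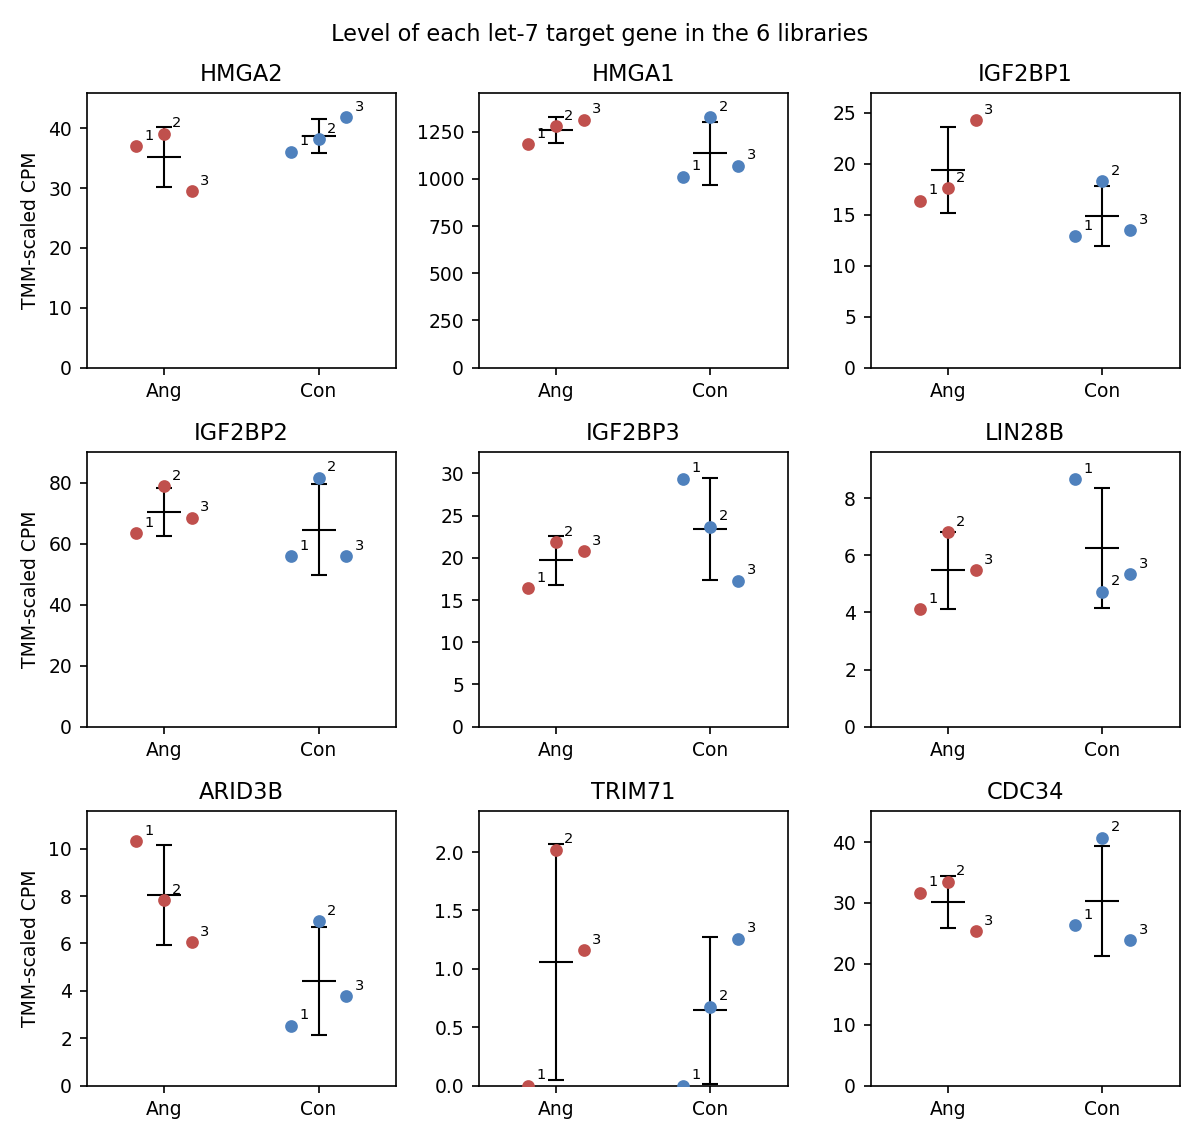
TMM-scaled CPM of each member by library, Ang left of Con; numbers give the replicate, and bars are the mean and SD of 3 libraries. The groups overlapped for all 9 members, and for HMGA1, IGF2BP1, IGF2BP2, ARID3B and CDC34 the highest Con value was in replicate 2.

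Compared per kilobase of annotated exon, the members spanned more than 3 orders of magnitude only through TRIM71, which was at the edge of detection. Without it they ran from 515 CPM per kilobase for HMGA1 to 0.976 for LIN28B. HMGA1 averaged 515 ± 57.0 CPM per kilobase over the 6 libraries, CDC34 15.6 ± 3.27 and IGF2BP2 14.2 ± 2.35 (SD, n = 6). IGF2BP3 followed at 2.54 ± 0.552, HMGA2 at 2.40 ± 0.270 and IGF2BP1 at 1.88 ± 0.450 CPM per kilobase. The lowest were ARID3B at 1.0 ± 0.450, LIN28B at 0.976 ± 0.273 and TRIM71 at 0.0980 ± 0.0906. CDC34 and IGF2BP2, IGF2BP3 and HMGA2, HMGA2 and IGF2BP1, and ARID3B and LIN28B were neighbours within their spread. HMGA1 over CDC34, IGF2BP2 over IGF2BP3, IGF2BP1 over ARID3B and LIN28B over TRIM71 held in 6 of 6 libraries. With the strand setting not given, this is an order of counts per length, and how far it holds for the RNA was not tested.

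The place of HMGA2 in this order rested on the length used. Its annotated exons cover 15403 bases, its principal transcript 4473. Divided by that transcript, a scale chosen after seeing the data, HMGA2 averaged 8.26 ± 0.931 CPM per kilobase, above IGF2BP3 at 5.08 ± 1.11. The other 7 members kept their places.

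**Figure D4:**
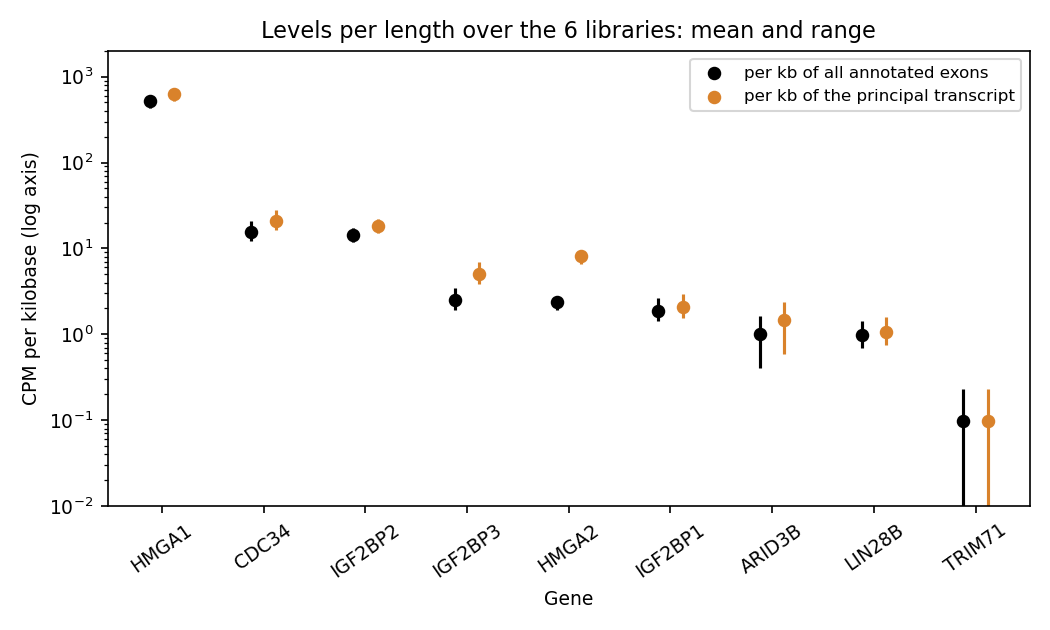
Mean level (point) and range over the 6 libraries (line) of each member in CPM per kilobase on a log axis, per length of all annotated exons (black) and of the principal transcript (orange). HMGA1 lay at 435 to 570 CPM per kilobase of exon, and lines that reach the lower edge extend to 0.

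Ang and Con did not differ past the threshold for any tested member, nor for any gene. After Benjamini-Hochberg adjustment, edgeR's quasi-likelihood test called 0 of 8 tested members, against 0% of 14547 tested genes, and the adjusted p of each member was 0.999. DESeq2 and limma-voom also called 0 genes. Before adjustment, 0 members had a p below 0.05 in edgeR, against 494 genes or 3.4%; DESeq2 counted 411 such genes and limma-voom 437. Without Con replicate 2, 2 of 8 members had a p below 0.05 before adjustment in edgeR, HMGA1 (0.00449) and ARID3B (0.0205), against 1633 of 14867 genes or 11%, and 0 members passed after adjustment, against 40 genes or 0.269%. The Ang and Con libraries did not overlap for 0 of 8 members, against 8.16% of tested genes. As the contrast was used in choosing the list, nothing further is read from these counts.

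Of the 8 members, 4 had a positive log2 fold change (HMGA1, IGF2BP1, IGF2BP2 and ARID3B) and 4 a negative one (HMGA2, IGF2BP3, LIN28B and CDC34). Their median was 0.051, against -0.006 over all tested genes, and the range was -0.26 to 0.84. Without Con replicate 2 the median was 0.27 and 5 were positive, CDC34 having changed sign, with no member past the threshold. The tested members free of exons on the opposite strand, HMGA1, IGF2BP2, ARID3B and CDC34, each had their highest Con value in replicate 2. That library also had the largest share of counts in such genes, 28.7% against 21.7% to 25.5% in the others. The part of this in the values was not tested.

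**Figure D5:**
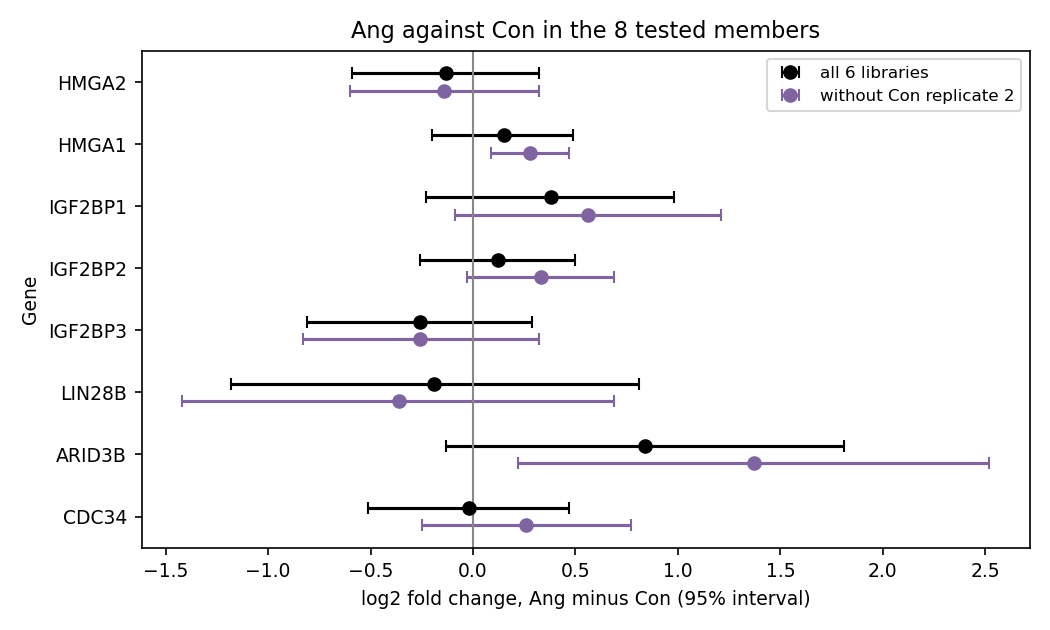
Log2 fold change (Ang minus Con) of the 8 tested members with its 95% interval, from all 6 libraries (black) and without Con replicate 2 (purple). With all libraries each interval includes 0; without Con replicate 2 those of HMGA1 (0.09 to 0.47) and ARID3B (0.22 to 2.52) do not, and ARID3B had the widest shift between the fits, 0.84 and 1.37.

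The let-7 site genes as a whole, whose median the choice of the members rested on, are given for scale. Among tested genes with a 3′ untranslated region, the median log2 fold change was -0.023 over 1807 genes with any match, -0.028 over 417 with an 8mer, and 0.010 over 9265 with none. The median length of the region was 2939, 3230 and 932 bases in these sets. The 23 tested genes with 4 or more matches had a median of -0.026, with 11 values positive. The members with 4 or more matches and a test stood on both sides: HMGA2 and LIN28B below 0, IGF2BP1 and ARID3B above.

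A list of 33 further let-7 targets was examined beside the members. Of these 31 were tested and 0 passed the threshold in either direction. Positive values numbered 18, against 49.2% of all tested genes, with a median of 0.046. Before adjustment 3 of 31 had a p below 0.05 in edgeR, against 3.4% of tested genes. INSR, FAS, IRS2 and ITGB3 are named because they had the smallest unadjusted p of this list, so their values are its extremes. In 2 of 31 all Ang libraries lay above all Con libraries, against 3.62% of tested genes, and in 0 all lay below, against 4.54%. INSR, the insulin receptor, was 1 of the 2, with 17.3, 24.0 and 19.1 CPM in Ang and 12.2, 11.0 and 9.12 CPM in Con (0.89 ± 0.32). FAS, a death receptor, was the other, with 22.6, 18.7 and 17.6 CPM in Ang and 9.71, 8.96 and 14.2 CPM in Con (0.86 ± 0.33), and 8.93% of its exon bases lie under genes of the other strand. IRS2, an adaptor of the insulin receptor, averaged 16 ± 6.61 CPM in Ang and 9.12 ± 3.46 CPM in Con (0.80 ± 0.36), with overlapping groups. Its log2 fold change was 1.09 without Con replicate 2 and 0.49 without Ang replicate 3. ITGB3, an integrin subunit, went the other way, at 2.82 ± 2.57 CPM in Ang and 6.05 ± 1.74 CPM in Con (-1.11 ± 0.61). Ang replicate 3, at 5.78 CPM, stood above the other 2 Ang libraries at 1.17 and 1.51 CPM; without it the log2 fold change of ITGB3 was -2.15, and without Ang replicate 1 it was -0.76. The 3 most abundant, E2F5, THBS1 and CCND1, had log2 fold changes of -0.02 ± 0.17, 0.17 ± 0.17 and 0.07 ± 0.18. Of their exon bases 18.6%, 7.58% and 10.3%, in that order, lie under genes of the other strand.

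Of 17 tested genes for making and turning over let-7, 0 passed the threshold. In 12 the value was negative, against 7396 of all 14547 tested genes, and the median was -0.096. The most abundant were ZSWIM8, which directs decay of microRNAs, KHSRP, which promotes let-7 maturation, and TUT4, which tails let-7 precursors bound by LIN28. ZSWIM8 averaged 74.6 ± 5.20 CPM in Ang and 69.6 ± 13.7 CPM in Con, and 16.9% of its exon bases lie under genes of the other strand. KHSRP averaged 73.0 ± 11.9 CPM in Ang and 73.0 ± 12.1 CPM in Con, and TUT4 59.8 ± 10.5 and 53.6 ± 7.06 CPM. The 4 with the smallest unadjusted p were the second tailing enzyme TUT7 (-0.31 ± 0.25), the silencing scaffolds TNRC6A (-0.33 ± 0.26) and TNRC6B (-0.37 ± 0.33), and the Argonaute AGO1 (-0.43 ± 0.35). AGO1 was at -0.12 ± 0.40 without Con replicate 2, and without Con replicate 1 TNRC6A was at -0.09 and TNRC6B at -0.17. All Ang libraries lay below all Con libraries for 1 of the 17, the Argonaute AGO4 (6.26 ± 0.423 CPM in Ang, 8.86 ± 0.576 CPM in Con), against 4.54% of tested genes. AGO4 was singled out after its values were seen.

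Hosts of let-7 precursors differed widely in level. HUWE1, a ubiquitin ligase gene whose introns hold let-7f-2 and miR-98, averaged 312 ± 22.7 CPM in Ang and 316 ± 43.0 CPM in Con. MIR100HG, the host of let-7a-2, averaged 78.3 ± 13.6 CPM in Ang and 67.2 ± 8.68 CPM in Con (0.22 ± 0.19), and WDR82, the host of let-7g, 27.0 ± 5.67 and 33.2 ± 4.13 CPM (-0.30 ± 0.25). SPACA6, whose locus holds let-7e, averaged 5.88 ± 0.535 CPM in Ang and 6.37 ± 1.68 CPM in Con. MIRLET7BHG had 0 counts over the Ang and 4 over the Con libraries, and MIR99AHG, the host of let-7c, 4 over the Ang and 0 over the Con libraries. Host RNA does not give the level of the mature microRNA, which was not measured.

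Other oncofetal genes were mostly near the limit of detection. IGF2, the growth factor whose messenger RNA the IGF2BPs are named for, had 8 counts over the Ang and 5 over the Con libraries, and H19 had 1 and 1. PEG10 averaged 22.4 ± 2.89 CPM in Ang and 18.8 ± 5.27 CPM in Con (0.25 ± 0.28), and its log2 fold change was 0.12 without Con replicate 2 and 0.51 without Con replicate 1. PLAG1, a zinc finger factor, had 8.51, 7.06 and 7.51 CPM in Ang, against 9.71, 11.0 and 10.7 CPM in Con (-0.44 ± 0.40). All its Ang libraries lay below all Con libraries, the case for 1 of the 4 tested genes of this list, against 4.54% of tested genes. GPC3, a glypican, had 26 counts over the Ang and 41 over the Con libraries (-0.37 ± 0.75), and without Ang replicate 1 its sign turned, to 0.07. With HMGA2-AS1, which was on the list too, 4 of the 10 listed were tested, and 0 passed the threshold.

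For HMGA1, the member with the highest CPM, the 3 genes with the most similar log2 CPM over the 6 libraries were sought among 6880 genes of at least 20 CPM. They were GNAS (Pearson r 0.996), ACTB (0.995) and OGDH (0.995), and 77 genes had an r above 0.95. These are correlations over 6 libraries that differ in depth, scaling factor and strand ratio, and are given as a description. The part of those differences in r was not tested.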

How the data were processed

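Per the labels' protocols, poly(A) RNA was fragmented, primed at random and sequenced, with no named step that marks the strand. The authors deposited raw counts of reads for each Ensembl ID. HTSeq 0.9.1, DESeq 1.39.0 and GRCh38 are named per the submitters' processing notes. Aligner, annotation release and strand setting: not given in the sources used here. Of 28979 IDs, 28918 had a symbol and 28192 matched GENCODE 29, which gave exons, coordinates and transcripts.

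Genes kept by filterByExpr were tested with edgeR 4.0.16 (R 4.3.3; TMM, robust quasi-likelihood, no replicate term, threshold 0.05 after Benjamini-Hochberg adjustment over all genes), checked on simulated counts. SE is the log2 fold change over the root of F. Other values are mean ± SD of 3 libraries. Exact binomial intervals and zero-count limits use the 95% level and cover counting error only. Opposite-strand exons were found with bedtools 2.31.1. Strand pairs had at least 90% of the noncoding gene's exon bases covered and 300 counts in the coding gene.

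Members and lists were chosen with earlier results of these data known. Named were all members, per list up to 4 genes by smallest p and 3 by highest CPM, and opposite-strand genes and pseudogenes of members. Alternatives were RLE scaling, 2 other filters, a replicate block, DESeq2 1.42.0, limma-voom (limma 3.58.1), genes free of opposite-strand exons and leaving out each library. No 2 libraries held identical values. One result on a further listed target is not reported here.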

Additional observations from a re-analysis of the deposited data

How the results depend on the processing

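No member was called in any setting run. The 0 genes called stayed at 0 with RLE scaling, no low-count filter, at least 1 CPM in 3 libraries, DESeq2, limma-voom and genes free of opposite-strand exons. Leaving out 1 library gave 0 to 40 genes, 40 without Con replicate 2 and 1 without Con replicate 1, whose cause was not tested. The members' median ran from -0.04 to 0.27 in these fits. The other named genes had a median of -0.02, and -0.27 among genes free of opposite-strand exons, where 12 of 25 remained. Of 100 alternative member values 4 changed sign, 3 of CDC34 and 1 of LIN28B. Deviations from the group means correlated at 0.0370, 0.0675 and 0.0356 between same-numbered Ang and Con libraries. Between different-numbered ones the correlations ran from -0.0697 to 0.0302, all below the same-numbered values. All were small, and the replicate numbers were not taken as pairs. The replicate block gave 0 genes, 0 members and a member median of 0.08, so it changed no call. Low counts limit LIN28B, ARID3B and TRIM71 most.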

Other observations

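By a chi-square on raw counts, the 3 Ang libraries lay closer to each other than the 3 Con libraries did. The mean chi-square per gene between 2 libraries was 3.62, 3.64 and 3.95 for the Ang pairs, against 7.17 for Con replicates 1 and 3 and 14.5 and 14.1 for the pairs with Con replicate 2. This measure grows with depth and leaves out the TMM factors. Con replicates 1 and 2 had the most counts, 4807007 and 5437190, and the part of depth in the gap was not tested. Among the members, HMGA1 had an SD of 67.3 CPM in Ang and 168 CPM in Con, IGF2BP2 7.92 and 14.9 CPM, and CDC34 4.25 and 9.09 CPM. HMGA2, IGF2BP1 and TRIM71 had the larger SD in Ang.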
